A study of Mus musculus with 3 samples.

Results

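The genes Cd81, Cd34, Pi16, C3, Ly6a, Clec3b, Ackr4, Dpt, Hmcn2 and Fmo2, which serve to recognise adventitial fibroblasts, were followed through the developing mouse small intestine. They are 10 of the 22100 gene symbols counted, and they were listed because earlier results of these same data showed them higher in fibroblasts at P7, so their levels across stages are given as a description with no test. Whole small intestine came from wild-type, untreated mice at 3 stages named by their day, E15.5 and E17.5 before birth and P7 after it, in a study of how the gut grows longer. Epithelial and mesenchymal cells were pooled and sorted as viable cells with Epcam, or with none of Epcam, the endothelial protein CD31 and the blood cell protein CD45, and RNA was counted by its 3′ end as unique molecular identifiers (UMIs, 1 per captured molecule) on the Chromium 3′ v2 system. Each stage is 1 library, of 8447, 11598 and 8391 cells at E15.5, E17.5 and P7, and the number of animals behind each was not given in the sources used here. Stages are therefore set side by side without a test, and the 95% intervals in brackets cover counting error only.

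The genes were read in cells with at least 2 UMIs of the collagen gene Col1a2 and at most 2 of Epcam, called Col1a2-positive cells from here on. These were 4664 of 8447 cells (55.2%) at E15.5, 6482 of 11598 (55.9%) at E17.5 and 1504 of 8391 (17.9%) at P7, shares that depend on the sort, with 41643429, 42211784 and 7317199 UMIs in all and medians of 7963, 5701.5 and 4554 UMIs per cell. Muscle (at least 3 UMIs of Myh11, smooth muscle myosin, at most 1 of Col1a2 and at most 2 of Epcam) gave 704, 539 and 129 cells as background, and epithelium (at least 3 UMIs of Epcam, at most 1 of Col1a2) gave 1319, 1480 and 6163 cells. The 3 sets share no cell. Levels are given in CPM, which is what a gene would have among 1000000 UMIs drawn from that set of cells. All 6 fibroblast markers were found in the Col1a2-positive cells, at summed levels of 6366, 11965 and 26934 CPM, but all 5 smooth muscle markers were found too, at 4182, 10240 and 9045 CPM, and 825, 1092 and 567 of these cells also carried at least 3 UMIs of Myh11. Immune markers summed to 15.4, 31.5 and 2.46 CPM with Ptprc and Tyrobp at 0 UMIs at P7, and endothelial markers to 4.01, 5.76 and 3.28 CPM with Cdh5 and Emcn at 0 UMIs at P7. Pericyte markers summed to 325, 435 and 764 CPM, glial to 38.2, 45.8 and 21.2 CPM, those of interstitial cells of Cajal to 101, 69.3 and 57.0 CPM, mesothelial to 1.30, 4.86 and 4.78 CPM with Upk3b at 0 UMIs at P7, and erythroid to 4519, 12067 and 246 CPM. Epithelial markers summed to 32.1, 72.1 and 632 CPM, so RNA of enterocytes was more common at P7. Its part in the results was not tested beyond the epithelial levels given below.

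Adventitial fibroblasts lie in the outer connective tissue of vessels and organs, and in the intestine fibroblasts of this kind lie below the crypts and in the submucosa, where they are known to secrete signals that sustain the stem cells. They are told apart from the fibroblasts directly under the epithelium, which carry much PDGFRA and BMP ligands, by surface proteins such as CD34, CD81 and Sca-1 (the product of Ly6a) and by matrix and secreted proteins such as PI16, CLEC3B and DPT. The listed genes cover 3 roles: surface proteins and a receptor (Cd81, Cd34, Ly6a, Ackr4), matrix and secreted proteins (Dpt, Hmcn2, Clec3b, Pi16, C3) and an enzyme (Fmo2).

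In Col1a2-positive cells, 9 of the 10 genes were at least 2-fold higher at P7 than at E17.5, and the same 9 had been at least 2-fold higher in E17.5 cells than in E15.5 cells. Cd81 was the exception at both steps. Of 15205 genes with at least 20 UMIs over both libraries, 12.8% were at least 2-fold higher and 6.29% at least 2-fold lower at P7 than at E17.5. Between E17.5 and E15.5, 9.37% of 15765 genes were higher by that much in E17.5 cells and 2.71% were lower. The median log2 ratio of the 10 genes was 3.63 at the later step, against 0.16 over all genes, and 2.65 at the earlier step, against -0.07 over all genes. The genes were chosen on this contrast and both steps share the E17.5 library, so nothing is read from these counts beyond the levels themselves. Genes with at least 100 UMIs in both libraries had a median log2 ratio of 0.17 at the later step and -0.13 at the earlier one, and measured against that shift the number of genes at least 2-fold higher was again 9 at each step.

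**Figure D1:**
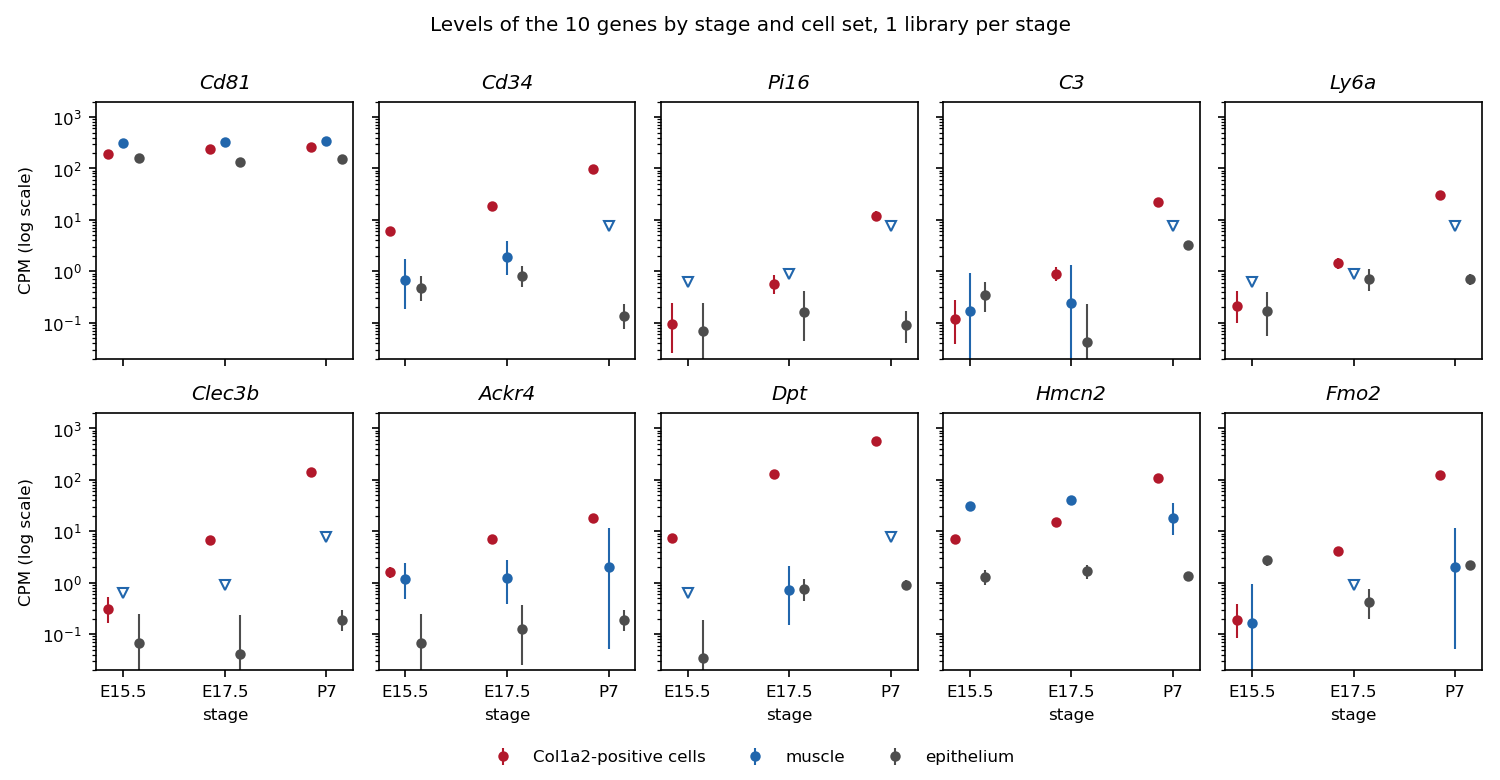
Levels of the 10 genes in CPM on a log axis, by stage, in Col1a2-positive cells (red), muscle (blue) and epithelium (grey), 1 library per stage. Points are levels, bars are 95% Poisson intervals cut off at the lower edge of the axis, and an open triangle marks the upper limit of the interval where no UMI was found. Cd81 lies between 134.4 and 335.5 CPM in every set, whereas Dpt reaches 567.4 CPM in Col1a2-positive cells at P7 with 0.909 CPM in epithelium.

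Among the matrix and secreted proteins, Dpt encodes dermatopontin, a small protein that binds decorin and collagen fibrils. Col1a2-positive cells of E15.5 held 7.32 CPM of Dpt (6.53 to 8.19), those of E17.5 held 129.5 CPM (126.1 to 133.0), and those of P7 held 567.4 CPM (550.3 to 585.0). The larger of its steps was the earlier one: E17.5 over E15.5 gave a log2 ratio of 4.14 (3.98 to 4.32), and P7 over E17.5 gave 2.13 (2.07 to 2.19). Muscle held 0, 3 and 0 Dpt UMIs at the 3 stages, and epithelium held 0.0343, 0.745 and 0.909 CPM. Against a floor of 3 UMIs in the muscle set, Dpt at P7 was 91.9-fold higher in Col1a2-positive cells. That is a log2 ratio of 6.52, and the lower limit of its interval was 6.22.

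Clec3b encodes tetranectin, a secreted lectin that binds plasminogen. It had 13 UMIs in E15.5 cells, or 0.312 CPM (0.166 to 0.534). E17.5 cells held 6.92 CPM (6.15 to 7.76) and P7 cells 145.5 CPM (136.9 to 154.6). The log2 ratios of both steps were similar, 4.47 (3.67 to 5.40) for E17.5 over E15.5, and 4.40 (4.21 to 4.59) for P7 over E17.5. Muscle held 0 Clec3b UMIs at every stage, with upper limits of 0.620, 0.894 and 7.59 CPM, and epithelium held 0.0685, 0.0414 and 0.188 CPM. At each stage the level of Clec3b was higher in Col1a2-positive cells than in epithelium.

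Pi16 encodes a secreted peptidase inhibitor of the CAP family that marks adventitial fibroblasts in many mouse tissues. It was the most sparsely counted of the genes, with 4 UMIs at E15.5 (0.0961 CPM), 24 UMIs at E17.5 (0.569 CPM) and 87 UMIs at P7 (11.9 CPM, 9.52 to 14.7). E17.5 over E15.5 gave a log2 ratio of 2.57 (1.02 to 4.55), and P7 over E17.5 gave 4.39 (3.72 to 5.10). At E15.5 the Pi16 level in Col1a2-positive cells lay inside the interval of the epithelium (0.0083 to 0.248 CPM), so at this depth it was not distinguishable from background there. In muscle Pi16 had 0 UMIs at every stage.

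C3 encodes complement component 3, which fibroblasts and epithelial cells can make locally. Its level was 0.120 CPM (5 UMIs) at E15.5, 0.900 CPM (38 UMIs) at E17.5 and 22.0 CPM (161 UMIs) at P7, and the log2 ratio was 2.91 (1.56 to 4.61) for E17.5 over E15.5, and 4.61 (4.09 to 5.16) for P7 over E17.5. Epithelium held 0.343, 0.0414 and 3.18 CPM, so that at E15.5 C3 was not higher in Col1a2-positive cells than in epithelium, and muscle held 1, 1 and 0 UMIs. The P7 level came from few cells, as shown further below.

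Hmcn2 encodes hemicentin-2, a very large matrix protein. Col1a2-positive cells of E15.5 held 6.94 CPM of it (6.16 to 7.79), those of E17.5 14.9 CPM (13.8 to 16.1), and those of P7 109.5 CPM (102.0 to 117.3). Before birth this level lay under that of muscle, where E15.5 gave 30.4 CPM (26.2 to 35.2) and E17.5 gave 41.2 CPM (35.2 to 47.9). At P7 it lay above the 18.5 CPM (8.47 to 35.2) of muscle, which rest on 9 UMIs. Within the Col1a2-positive cells, those with at least 3 UMIs of Myh11 held 219 of 289 Hmcn2 UMIs at E15.5, 408 of 630 at E17.5 and 173 of 801 at P7. Without these cells, the Hmcn2 level was 2.14, 6.98 and 141.7 CPM, and the log2 ratio of P7 over E17.5 was 4.34 (4.12 to 4.57) in place of 2.88 (2.72 to 3.03). Hmcn2 was thus mainly a transcript of Myh11-carrying cells before birth and mainly one of other Col1a2-positive cells at P7.

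Fmo2 encodes a flavin-containing monooxygenase, an enzyme that oxidises sulfur- and nitrogen-containing compounds. It had 8 UMIs at E15.5 (0.192 CPM), 174 at E17.5 (4.12 CPM, 3.53 to 4.78) and 920 at P7 (125.7 CPM, 117.7 to 134.1). E17.5 over E15.5 gave a log2 ratio of 4.42 (3.41 to 5.66), and P7 over E17.5 gave 4.93 (4.70 to 5.17), which is 30.5-fold. At E15.5 the epithelium held more Fmo2, at 2.71 CPM (2.14 to 3.37), of which 54.4% came from 5 cells, and it held 0.414 CPM at E17.5 and 2.25 CPM at P7. Muscle held 1, 0 and 1 UMIs of Fmo2. The order of the sets for Fmo2 therefore differed between E15.5 and the later stages.

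Of the surface proteins, Cd34 encodes a sialomucin carried by blood progenitors, endothelium and many fibroblasts. E15.5 cells held 6.20 CPM of Cd34 (5.46 to 7.00), E17.5 cells 18.4 CPM (17.1 to 19.7), and P7 cells 96.4 CPM (89.4 to 103.7). Unlike Dpt, its later step was the larger one, with log2 ratios of 1.57 (1.36 to 1.78) for E17.5 over E15.5, and 2.39 (2.24 to 2.54) for P7 over E17.5. Muscle held 4, 8 and 0 UMIs, and epithelium 0.480, 0.828 and 0.138 CPM. Endothelial markers summed to 4.01, 5.76 and 3.28 CPM in the same cells, as given above. The part of endothelial RNA in the Cd34 levels was not tested.

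Ly6a encodes Sca-1, a surface protein of the Ly6 family used to sort stem and progenitor cells. Its level was 0.216 CPM (9 UMIs) at E15.5, 1.45 CPM (61 UMIs) at E17.5 and 30.5 CPM (26.6 to 34.8, 223 UMIs) at P7. Its log2 ratio was 2.74 (1.72 to 3.94) for E17.5 over E15.5, and 4.40 (3.98 to 4.83) for P7 over E17.5. Epithelium held 0.171, 0.704 and 0.702 CPM and muscle 0 UMIs at each stage. The Ly6 genes form a family of close copies, and how reads shared between copies were counted was not given in the sources used here, so the Ly6a counts are uncertain to that extent.

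Ackr4 encodes an atypical chemokine receptor that removes CCL19, CCL21 and CCL25 without signalling through G proteins. E15.5 cells held 66 UMIs of it, 1.585 CPM (1.23 to 2.02), E17.5 cells 7.01 CPM (6.24 to 7.86), and P7 cells 18.0 CPM (15.1 to 21.4). The log2 ratio was 2.15 (1.76 to 2.55) for E17.5 over E15.5, and 1.36 (1.06 to 1.66) for P7 over E17.5, the smallest later step among the 9 genes. At E15.5 the level of muscle, 1.18 CPM from 7 UMIs, was not distinguishable from that of Col1a2-positive cells, while epithelium held 0.0685, 0.124 and 0.188 CPM.

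Cd81 encodes a tetraspanin, a membrane protein that organises other surface proteins in most cell types. E15.5 cells held 191.5 CPM of Cd81 (187.3 to 195.7), E17.5 cells 236.8 CPM (232.2 to 241.5), and P7 cells 256.9 CPM (245.4 to 268.8). At each stage muscle held more, at 317.7, 321.3 and 335.5 CPM, and epithelium less, at 159.4, 134.4 and 151.1 CPM. The log2 ratio of P7 over E17.5 was 0.12 (0.05 to 0.19), and its sign turned to -0.05 when measured against the median gene and to -0.03 in cells with at least 5 UMIs of Col1a2. Without the cells carrying at least 3 UMIs of Myh11, the Cd81 level was 159.6, 222.5 and 245 CPM. Its log2 ratio was then 0.48 (0.43 to 0.53) for E17.5 over E15.5 and 0.14 (0.05 to 0.23) for P7 over E17.5. RNA of Cd81 was thus present in all 3 sets at all 3 stages, and by itself it did not mark Col1a2-positive cells in these data. That is a measure of RNA, and the protein on the surface was not measured here.

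The promoters of 8 of the 10 genes were read from RefSeq (GRCm38.p6), as the 250 bases before the start of each gene. The 4 below are shown because they span most of the range of CpG content among the 8. Capitals mark CpG.
Cd81, chr7:143052500-143052749, plus strand: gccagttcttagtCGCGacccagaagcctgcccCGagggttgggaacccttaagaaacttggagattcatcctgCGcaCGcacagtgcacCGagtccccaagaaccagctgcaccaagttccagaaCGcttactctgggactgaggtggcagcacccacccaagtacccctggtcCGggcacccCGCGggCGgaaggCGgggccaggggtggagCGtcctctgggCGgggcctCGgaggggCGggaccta
Hmcn2, chr2:31314082-31314331, plus strand: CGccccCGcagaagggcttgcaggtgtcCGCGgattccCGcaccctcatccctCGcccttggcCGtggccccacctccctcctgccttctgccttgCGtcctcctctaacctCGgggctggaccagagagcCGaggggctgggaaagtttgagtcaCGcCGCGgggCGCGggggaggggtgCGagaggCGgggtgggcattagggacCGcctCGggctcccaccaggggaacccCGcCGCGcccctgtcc
Dpt, chr1:164796413-164796662, plus strand: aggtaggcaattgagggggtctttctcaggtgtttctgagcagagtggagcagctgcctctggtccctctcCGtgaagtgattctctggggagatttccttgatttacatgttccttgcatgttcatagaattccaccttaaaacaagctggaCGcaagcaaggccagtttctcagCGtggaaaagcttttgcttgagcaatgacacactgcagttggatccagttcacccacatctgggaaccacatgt
Pi16, chr17:29318632-29318881, plus strand: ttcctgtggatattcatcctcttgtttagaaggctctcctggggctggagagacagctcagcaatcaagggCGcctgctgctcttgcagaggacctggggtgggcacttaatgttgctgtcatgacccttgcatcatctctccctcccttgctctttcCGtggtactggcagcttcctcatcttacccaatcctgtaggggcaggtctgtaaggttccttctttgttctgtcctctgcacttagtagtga
Hmcn2 had 22 CpG and Cd81 had 16, against 6 for Cd34, 5 for Ackr4, 4 for Fmo2, 3 for Dpt, 2 for Pi16 and 1 for C3. Over the 27025 promoters of the same length, the median was 6 CpG and the quartiles were 2 and 16. Cd81 and Hmcn2 thus had at least as many CpG as the upper quartile, and the other 6 had no more than the median. In GENCODE M21 the Pi16 gene starts earlier, at position 29317680, so the bases shown lie inside that annotated gene. The Dpt gene starts at 164796644, the Cd81 gene at 143052739 and the Hmcn2 gene at 31314415. Both strands were searched for TGANTCA, the site of AP-1, GGAATG, the site of TEAD factors, and CCCNNGGG, the core of the EBF site; no match overlapped another. The first was found in 1 of the 8 promoters, that of Hmcn2 at 101 bases before the start, and in 6.87% of all promoters. TEAD letters were found in none of the 8 and in 12.6% of all, and EBF letters in Cd81 alone, at 219 and 68 bases before the start, and in 11.7% of all. These are matches of letters only.

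Both more cells with a UMI and more UMIs per such cell went with the higher levels at P7. To compare shares at equal depth, each cell was thinned to 5000 UMIs and shallower cells were left out, which kept 4171 (89.4%), 4082 (63.0%) and 571 (38.0%) of the Col1a2-positive cells at E15.5, E17.5 and P7. Dpt was then found in 3.26% (2.74 to 3.85), 25.9% (24.6 to 27.3) and 45.7% (41.6 to 49.9) of cells. Clec3b was found in 0.192%, 2.82% and 24.0% of cells, Cd34 in 2.73%, 7.15% and 24.7%, and Fmo2 in 0.168%, 1.69% and 22.6%. Hmcn2 was found in 2.95%, 6.30% and 33.6% of cells, Ackr4 in 0.887%, 3.60% and 6.48%, Pi16 in 0.0719%, 0.319% and 4.73%, Ly6a in 0.120%, 0.514% and 4.73%, and C3 in 0.0240%, 0.343% and 3.15%. The share of each of these 9 genes was highest at P7, whereas Cd81 was found in 46.8%, 51.4% and 46.6%.

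Over all 1504 cells of P7 without thinning, whose depth was lower, the shares were 38.0% for Dpt, 19.8% for Cd34, 17.4% for Clec3b, 19.9% for Fmo2, 31.1% for Hmcn2, 5.45% for Ackr4, 3.26% for Pi16, 2.46% for Ly6a, 1.80% for C3 and 37.4% for Cd81. Epithelium, thinned to the same depth, served as background, although epithelial cells can make some of these genes themselves. At P7 its share was 0.268% of 5968 cells for Dpt, 0.0503% for Clec3b, 0.117% for Cd34, 0.067% for Pi16, 0.101% for Ackr4, 0.402% for Ly6a, 0.603% for Hmcn2 and 0.754% for Fmo2, each below the share in Col1a2-positive cells. C3 was closer, at 3.15% of Col1a2-positive cells and 1.48% of epithelium. At E17.5 Ly6a depended on the measure. Its share was 0.514% of Col1a2-positive cells and 0.561% of epithelium at 5000 UMIs, but 0.573% and 0.273% when thinned to 3000 UMIs, and its CPM was higher than in epithelium by a log2 ratio of 1.04 (0.24 to 1.91). At E15.5 the shares at 5000 UMIs in Col1a2-positive cells were no higher than those in epithelium for Pi16 (0.0772% in epithelium), C3 (0.309%), Ly6a (0.154%) and Fmo2 (1.004%). The E15.5 Fmo2 of epithelium came with 3.59 UMIs per cell with the gene and up to 11 in a cell. At E15.5 Pi16, C3 and Ly6a rest on 4 to 9 UMIs in Col1a2-positive cells, and their intervals overlapped those of epithelium.

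UMIs per cell with the gene were counted without thinning. Dpt had 1.61, 3.06 and 7.26 UMIs per cell with Dpt at E15.5, E17.5 and P7, although P7 cells were the shallowest. Ly6a had 1.13, 1.15 and 6.03, C3 had 1.25, 1.58 and 5.96, and Clec3b had 1.00, 1.45 and 4.08. Pi16 (1.78 at P7), Hmcn2 (1.72) and Ackr4 (1.61) stayed below 2. The high values of C3 and Ly6a went with concentration in few cells: the 5 highest cells held 54.7% of the C3 UMIs, 39.9% of the Ly6a UMIs and 31.0% of the Pi16 UMIs at P7, but 9.77% of those of Clec3b, 3.99% of those of Hmcn2 and 3.69% of those of Dpt.

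The genes were also found together in single cells. Counting the 9 genes other than Cd81 in the thinned cells, at least 2 were found in 19 of 4171 cells (0.456%, 0.275 to 0.711) at E15.5, 322 of 4082 (7.89%, 7.08 to 8.76) at E17.5 and 255 of 571 (44.7%, 40.5 to 48.8) at P7. At least 4 were found in 0 of 4171 cells at E15.5 (upper limit 0.0884%), in 16 (0.392%) at E17.5 and in 108 (18.9%) at P7. The most in a cell was 7, in 5 cells at P7, and 36.3% of P7 cells had none. Epithelium at P7 had at least 2 in 4 of 5968 cells, and muscle in 0 of the 20 cells that were deep enough. Without the cells carrying at least 3 UMIs of Myh11, the share with at least 2 genes was 0.677%, 10.2% and 65.6%. At the Col1a2 threshold, the 144 P7 cells with exactly 2 UMIs of Col1a2 held 98.2 CPM of all 9 together (74.0 to 127.9), and the 138 cells with exactly 1, just outside it, held 60.1 CPM (42.3 to 82.8).

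**Figure D2:**
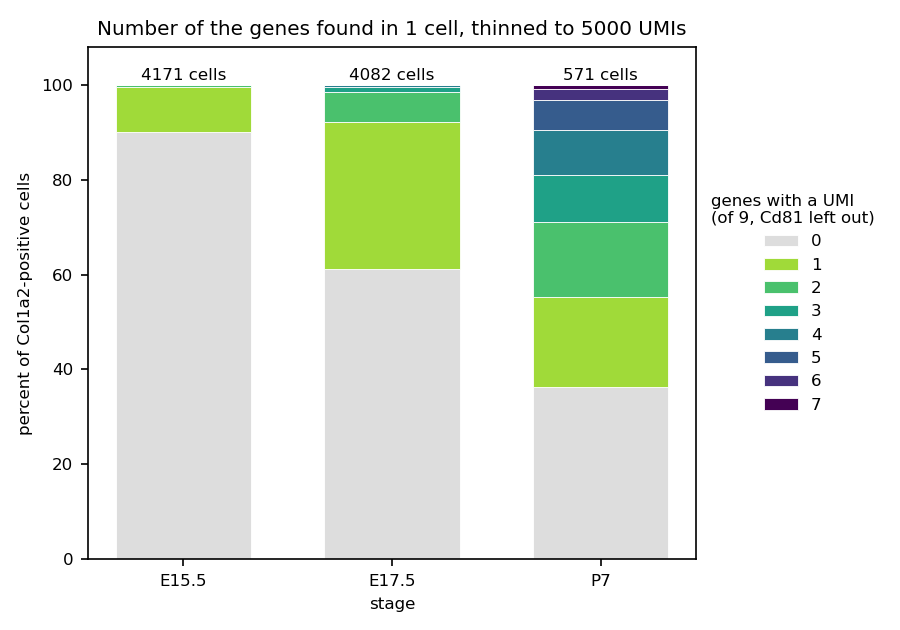
Percent of Col1a2-positive cells, thinned to 5000 UMIs, by the number of the 9 genes (Cd81 left out) with at least 1 UMI, at E15.5, E17.5 and P7, with the number of cells above each bar. Cells with none make up 90.1%, 61.3% and 36.3%, and cells with 4 or more are seen in quantity at P7 alone.

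Pairs of genes were compared with the number of cells expected from the product of their shares, for pairs with at least 5 expected cells. At P7 this gave 36 of the 45 pairs, of which 33 were found together more often than expected, with a median ratio of 1.86 and a range of 0.551 to 4.01. Cd34, Clec3b, Fmo2, Ly6a and Pi16 stood closest together. Ly6a and Clec3b were found in 26 of the 571 cells against 6.48 expected (ratio 4.01, 2.62 to 5.88), Cd34 and Ly6a in 24 against 6.67 (3.60), Pi16 and Clec3b in 22 against 6.48 (3.40), and Cd34 and Pi16 in 22 against 6.67 (3.30). Dpt was found with each of these 5 genes at ratios of 1.88 to 2.04, and Ackr4 with Cd34, Clec3b, Fmo2 and Dpt at 1.79 to 2.19. Cd81 was found in 25 of the 27 cells with Pi16 (ratio 1.99, 1.29 to 2.93) and 23 of the 27 with Ly6a (1.83), but near expectation with Dpt (1.17, 0.984 to 1.38) and Hmcn2 (1.07, 0.869 to 1.31). In the 346 cells with under 3 UMIs of Myh11 the pairs were closer to expectation, with 32 of 36 above 1 and a median of 1.42. These ratios are across cells of 1 library.

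Of this group, Pi16 and Ly6a had ratios below 1 with Hmcn2. Pairs of C3 with Cd34, Clec3b, Fmo2, Ly6a and Pi16 had fewer than 5 expected cells and were not given. Whether C3 stood apart from the group could therefore not be read from pairs. Hmcn2 was found with Pi16 in 5 cells and with Ly6a in 5 cells, each against 9.08 expected (ratio 0.551, 0.179 to 1.29), although it was found with Dpt in 126 cells against 87.8 expected (1.44, 1.20 to 1.71). Hmcn2 and C3 were found together in 4 cells against 6.05 expected (0.661, 0.180 to 1.69). The intervals of the 3 ratios below 1 all reach above 1, so that they are low by point value only. At E17.5 the pair of Cd34 and Clec3b was the highest, with 49 of 4082 cells against 8.23 expected (5.96, 4.41 to 7.88), while Hmcn2 was found with Cd34 in 5 cells against 18.4 (0.272, 0.0883 to 0.635) and with Dpt in 36 against 66.6 (0.541, 0.379 to 0.748). Of these 2 low ratios, the one with Dpt was 1.18 (0.827 to 1.64) without the Myh11-carrying cells, and the one with Cd34 was 0.246 (0.0298 to 0.887). Ly6a was found with Dpt in 1 cell against 5.44 expected (0.184, 0.0047 to 1.02).

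**Figure D3:**
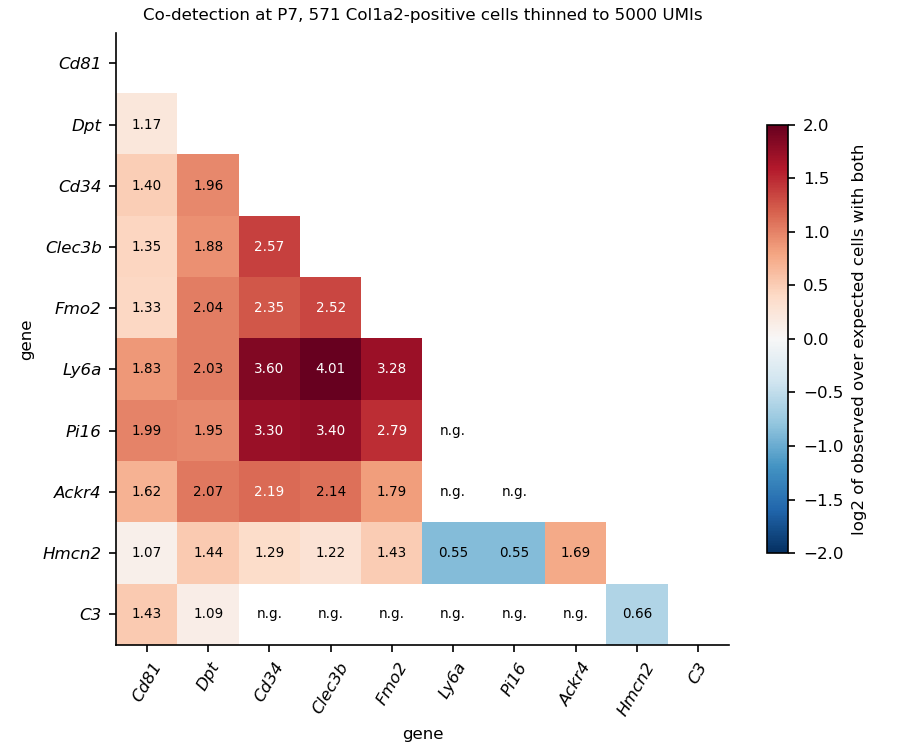
Cells with both genes of a pair at P7, divided by the number expected from the product of their shares, over 571 Col1a2-positive cells thinned to 5000 UMIs. Colour gives the log2 of the printed ratio, and n.g. marks pairs not given because fewer than 5 cells were expected. Cd34, Clec3b, Fmo2, Ly6a and Pi16 form the block of high ratios, up to 4.01, and Hmcn2 has ratios of 0.551 with Ly6a and with Pi16.

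C3 and Ly6a were then compared cell by cell, a comparison chosen after their values were seen. At P7, 27 Col1a2-positive cells had C3, 37 had Ly6a and 1 had both. Pi16 was found in 49 cells, of which 23 also had Ly6a and 1 also had C3. Cells with at least 3 UMIs numbered 22 for Ly6a and 14 for C3, with none in common, and those 14 cells held 147 of the 161 C3 UMIs. In all other Col1a2-positive cells C3 stood at 1.94 CPM, no higher than the 3.18 CPM of the epithelium. Sets this small among the 1504 cells can share 1 cell or none without avoidance. The low overlap of C3 with Ly6a and with Pi16 therefore does not show that these genes lie apart.

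The 22 Ly6a cells carried the rest of the group. Clec3b was found in 22 of 22 at 1980 CPM (1763 to 2216), Cd34 in 22 of 22 at 863 CPM, Dpt in 22 of 22 at 1568 CPM, Fmo2 in 18 at 784 CPM and Pi16 in 17 at 235 CPM. Cd81 was found in 22 at 797 CPM (662 to 952), against 244 CPM in the 1468 cells with under 3 UMIs of both genes. Hmcn2 was found in 3 of the 22, at 52.3 CPM (22.6 to 103), against 112 CPM in those 1468 cells. These cells also held Mfap5 (3581 CPM), a microfibril protein, Igfbp6 (1059 CPM), a binding protein of insulin-like growth factors, and the imprinted genes H19 (2196 CPM), Igf2 (850 CPM) and Cdkn1c (2346 CPM). In the 1468 other cells Mfap5 was at 282 CPM, Igfbp6 at 15.6 CPM, H19 at 62.4 CPM and Igf2 at 46.2 CPM. Their endothelial and immune markers were at 0 UMIs, and the mesothelial gene Wt1 had 14 UMIs with Upk3b, Upk1b, Msln and Lrrn4 at 0. Smooth muscle markers had 127 UMIs in the 22 cells (76 of Acta2 and 46 of Myh11), pericyte markers 13 and epithelial markers 80. Only 1 of the 22 carried at least 3 UMIs of Myh11.

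The 14 C3 cells differed from them. They held the chemokine genes Ccl21a (6391 CPM, 12 of 14 cells), Ccl19 (6077 CPM, 14 of 14) and Cxcl13 (1138 CPM, 13 of 14), which attract lymphocytes and dendritic cells, with Mfge8 (6489 CPM), Clu (1864 CPM), the complement gene C4b (834 CPM) and Vcam1 (860 CPM), an adhesion protein. Ccl21a had 0 UMIs in all other Col1a2-positive cells, and Ccl21a belongs to a cluster of near-identical genes whose shared reads make its count uncertain. Ly6a, Pi16 and Ackr4 had 0 UMIs in the 14 cells, which hold 111570 UMIs in all. The upper limit of 33.1 CPM for each lies below the levels of Ly6a and Pi16 in the 22 Ly6a cells, but not below that of Ackr4 there (32.7 CPM), nor below those of the 3 genes in the 1468 others (2.41 CPM for Ly6a, 7.23 for Pi16 and 18.0 for Ackr4). Cd34 stood at 71.7 CPM in the C3 cells (31.0 to 141) and 80.1 CPM in the others, and Cd81 at 368 CPM (264 to 499) and 244 CPM. Clec3b had 6 UMIs (53.8 CPM, 19.7 to 117), and Dpt 57 UMIs (511 CPM, 387 to 662), close to the 547 CPM of the 1468 others. Mfap5 and Igf2 had 0 UMIs in the C3 cells (upper limit 33.1 CPM), against 282 and 46.2 CPM in the 1468 others. Igfbp6 and H19 had 2 UMIs each in the C3 cells (17.9 CPM, 2.17 to 64.8), against 15.6 and 62.4 CPM in the others. Fmo2 and Hmcn2 had 2 UMIs each (17.9 CPM, 2.17 to 64.8), against 113 CPM and 112 CPM in the 1468 others. Among markers of other cell types they held the pericyte gene Rgs5 (95 UMIs), Des (50 UMIs), Stmn2 (73 UMIs in 9 cells, with the neuronal genes Elavl4 and Tubb3 at 0) and Cd74 (11 UMIs, with Ptprc at 0). Without cells carrying 3 or more UMIs of markers of other types, the log2 ratio of C3 at P7 over E17.5 was 3.18 (2.27 to 4.09). By these counts most C3 at P7 was in cells other than the Ly6a and Pi16 cells, as such small numbers can give without avoidance. The intervals of the 14 C3 cells for Cd34, Dpt, Clec3b, Ly6a, Pi16 and Ackr4 overlapped those of the 1468 others. That overlap does not show that the levels are alike. The intervals for Fmo2 and Hmcn2 lay below those of the 1468 others, and the interval for Cd81 lay above. Myh11 was found in 742 of the 1468 others, at 1402 CPM, against 98.6 CPM in the C3 cells. P7 Col1a2-positive cells with under 3 UMIs of Myh11, a set that takes in C3 and Ly6a cells, were therefore read too. They held 153.7 CPM of Cd34, 233.5 of Clec3b and 901.7 of Dpt, each above the interval of the C3 cells. Ly6a (47.4 CPM) also lay above that interval, whereas Pi16 (18.95 CPM) and Ackr4 (27.5 CPM) did not. The part of RNA from pericytes or other cells in this was not tested.

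**Figure D4:**
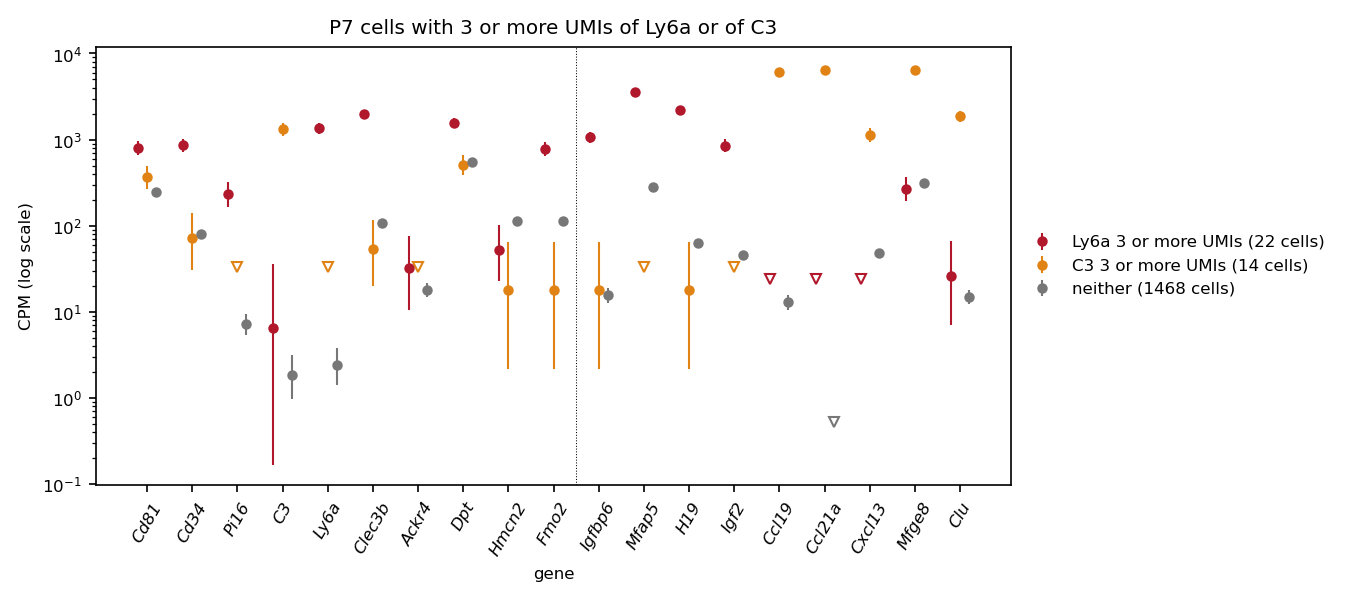
Levels at P7, in CPM on a log axis, in the 22 Col1a2-positive cells with at least 3 UMIs of Ly6a (red), the 14 with at least 3 of C3 (orange) and the 1468 others (grey). The 10 genes are left of the dotted line and other genes right of it, bars are 95% Poisson intervals, and an open triangle marks the upper limit where no UMI was found. Clec3b, Cd34, Fmo2 and Mfap5 are high in the Ly6a cells, and Ccl19, Ccl21a, Cxcl13, Mfge8 and Clu in the C3 cells.

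The genes most like the group at P7 were found by the correlation, over the 571 thinned cells, between having a UMI of the gene and the number of the 9 genes in the cell. The 10 highest of 8670 genes were Fndc1 (Pearson r = 0.56), Col14a1 (0.54), Htra3 (0.52), Hpgd (0.51), Tnxb (0.50), Mgp (0.49), Fbln1 (0.48), Serpinf1 (0.47), Lum (0.47) and Ccn3 (0.46). The cells share 1 library and 1 depth, and over the 4082 thinned E17.5 cells the same 10 genes had r of 0.05 to 0.25. Ccn3, a matricellular protein, stood at 0.384, 3.41 and 85.1 CPM at E15.5, E17.5 and P7, and Tnxb, tenascin-X, at 7.92, 18.7 and 179.6 CPM. By contrast Col14a1 stood at 599.5, 810.3 and 526.8 CPM, so likeness across cells at P7 did not go with a higher level at P7 for every gene. Myh11 (-0.59), Acta2 (-0.54) and Actg2 (-0.51), all of smooth muscle, were the most unlike. Of the 571 cells, 225 carried at least 3 UMIs of Myh11 before thinning. The ranking therefore also separates Myh11-carrying cells from the others, and it was not repeated without them.

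Cells were also ordered by how many of the 9 genes they held at P7, in bins of 207 cells with 0, 109 with 1, 147 with 2 or 3, and 108 with 4 or more, and other genes were read along this order. Their median depth before thinning was 6126, 6202, 6178 and 6320.5 UMIs, and the enterocyte gene Apoa4 stood at 246, 262, 261 and 261 CPM, so neither ran with the number of genes. Dcn, the matrix protein decorin, stood at 2440, 4055, 8434 and 12350 CPM, and Myh11 at 2415, 2844, 419 and 88.9 CPM. In a separate thinning of the 346 cells with under 3 UMIs of Myh11, 62 had none of the 9 genes. Most cells of the first bin thus carried Myh11, so the order also ran from Myh11-carrying cells to others. The levels along it were not read without the Myh11-carrying cells. Cd81, left out of the count, stood at 246, 218, 276 and 533 CPM, so it was highest in cells with 4 or more of the other genes. Mfap5 stood at 131, 195, 324 and 1361 CPM and Igfbp6 at 0, 5.51, 4.08 and 243 CPM, both high in the last bin. Grem1, a BMP antagonist of the crypt niche, peaked in the cells with 2 or 3 genes, at 114, 301, 518 and 287 CPM. Adamdec1, a metalloprotease of mucosal fibroblasts, was lowest in the last bin, at 2416, 2941, 1567 and 444 CPM. Genes of mucosal fibroblasts went both ways by their correlation with the number of the 9 genes. Pearson r was 0.39 for Ptn, 0.15 for Apoe and 0.12 for Edil3, but -0.23 for Col6a4, -0.10 for Fabp5 and -0.04 for Adamdec1.

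Lists of related genes were read at the same step from E17.5 to P7, against the 12.8% higher and 6.29% lower over all genes. Of 24 other adventitial genes, 23 had at least 20 UMIs (Efhd1 did not), 17 of these were at least 2-fold higher at P7, none was 2-fold lower, and the median log2 ratio was 1.63. Ly6c1 (4.11, 39 UMIs at P7 against 13 at E17.5) and Mfap5 (3.95, 346.6 CPM at P7 against 22.5 CPM at E17.5) were highest, and Gfpt2 (0.36) and Procr (0.52) lowest. A higher level at P7 did not place a gene in the same cells, since Anxa3, with a log2 ratio of 2.24, stood at 87.0 CPM in P7 cells with 4 or more of the 9 genes against 191 CPM in those with 0. At the earlier step 22 of the 24 genes were measured, of which 13 were at least 2-fold higher and none 2-fold lower (median 1.14), against 9.37% higher and 2.71% lower over all genes.

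The 7 signals for the crypt ascribed to CD81 fibroblasts, read here over all Col1a2-positive cells, were partly higher. At least 2-fold higher at P7 were 4 of 7, with a median log2 ratio of 1.05. Wnt2b, a WNT ligand, had 1.98 and Cxcl12, a chemokine, 1.94 (884.9 CPM at P7 against 230.1 CPM at E17.5), whereas Rspo1, a WNT agonist, had -0.59 and the WNT inhibitor Sfrp1 0.36. None of the 7 was 2-fold higher or lower at the earlier step, against the same 9.37% and 2.71%. Over the thinned P7 cells, Pearson r of the 7 signals with the number of the 9 genes was 0.03 to 0.335. Grem1 stood at 13.1 CPM (1.58 to 47.2) in the 22 Ly6a cells. It stood at 241 CPM in the 1468 others and 1542 CPM in the 14 C3 cells. Which cells made the signals was not tested.

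Genes of the other fibroblast kinds were not higher as a group. Of the 10 genes of PDGFRA-high cells under the epithelium, none was at least 2-fold higher at P7 and 5 were at least 2-fold lower (median -0.88), with Sox6 (0.99) and Bmp4 (0.31) highest and Nrg1 (-2.94), a growth factor of the EGF family, and Bmp3 (-1.69) lowest. Of the 6 mucosal genes, 1 was 2-fold higher and 1 lower (median -0.44): Adamdec1 had 1.45 (2510 CPM at P7 against 920 CPM at E17.5), Apoe -0.17, Edil3 -0.75 and Col6a4, a collagen VI chain, -1.14. Of 8 embryonic mesenchyme genes, 7 were measured (Lin28b was not), none was 2-fold higher and 5 were lower (median -1.39), with Igf2bp3 (-0.59) and Plagl1 (-0.76) highest and Dlk1 (-2.23) and Hmga2 (-2.18) lowest.

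**Figure D5:**
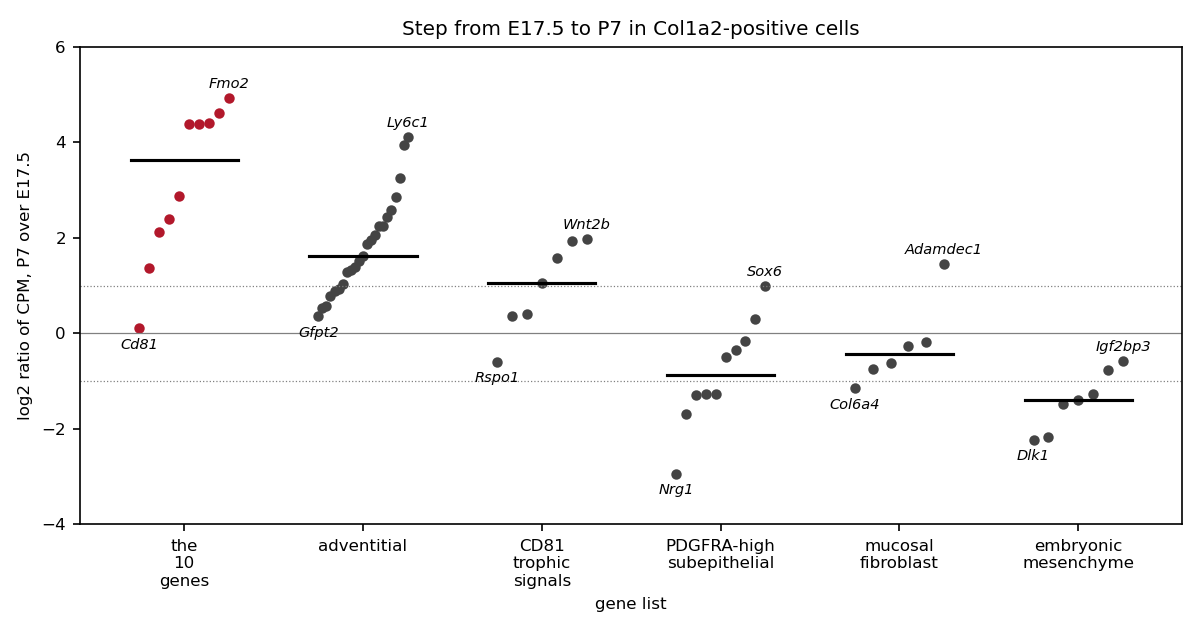
Log2 ratio of the level at P7 over E17.5 in Col1a2-positive cells, for the 10 genes (red) and for 5 lists of related genes (grey), 1 point per gene with the highest and lowest named and a bar at the median. Dotted lines mark a 2-fold difference. Medians are 3.63 for the 10 genes, 1.63 for the adventitial list and -1.39 for the embryonic list.

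Some embryonic genes, looked at after their values were seen, were highest in the P7 cells with most of the group. Igf2, whose level over all Col1a2-positive cells was 62.3 CPM at P7 against 150.6 CPM at E17.5, stood at 39.6, 27.5, 36.7 and 246 CPM in cells with 0, 1, 2 or 3, and 4 or more of the 9 genes. Dlk1, a membrane protein of immature mesenchyme, stood at 11.6, 99.1, 146 and 248 CPM along the same bins, against 92.5 CPM at P7 and 433.2 CPM at E17.5 over all cells. Plagl1, a growth-linked transcription factor, stood at 52.2, 136, 211 and 359 CPM. Hmga2 did not follow them, at 14.5, 7.34, 4.08 and 3.70 CPM. For the rest of the list, Pearson r at P7 was 0.38 for Mest, 0.29 for Lsp1 and -0.003 for Igf2bp3, and Lin28b was not found. The order was not particular to P7. In E17.5 cells with 0, 1 and 2 or 3 genes, Dlk1 stood at 272, 611 and 1169 CPM and Igf2 at 134, 150 and 345 CPM. Plagl1 stood at 186, 339 and 430 CPM there, and Hmga2 at 47.7, 25.7 and 15.0 CPM. As above, most P7 cells with 0 of the genes carried Myh11, and these levels were not read without Myh11-carrying cells.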

How the data were processed

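Single-cell RNA of mouse small intestine was read from 3 libraries, 1 per stage. What the authors deposited are UMI counts, not normalized, for each gene in each cell. Per the submitters' processing notes, Cell Ranger 7.2.0 was used, with mm10 and GRCm38 as builds. The deposited cells had 501 to 6989 genes and at most 15% mitochondrial UMIs, and no further filter on cells was applied. The 3 barcode lists are identical, as long as the E15.5 library alone, so shared barcodes could not be counted and cells were taken by position.

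The 10 genes, the related lists and the markers were chosen with earlier results of these data known. The rule for named genes took all 10 genes, the 10 genes most like them, and the 2 highest and 2 lowest of each list; the genes most unlike them, H19, Igf2, Cdkn1c, Dlk1, Plagl1, Anxa3, Grem1 and the genes of the C3 and Ly6a cells were picked after their values were seen where no such place named them. Ptn and Fabp5 were named so that all genes of the mucosal list stood beside Adamdec1, and Mest and Lsp1 so that all genes of the embryonic list were named. Counts were summed per cell set and scaled to CPM. Intervals of 95% are exact Poisson for levels, Clopper-Pearson for shares and conditional binomial for ratios, and cover counting error only. Ratios used genes with at least 20 UMIs over both libraries, with 3 UMIs as the floor. Cells were thinned to 5000 UMIs with a fixed seed. Doublets marked by Scrublet (scanpy 1.11.5, expected rate 6%), 135, 259 and 12 of the Col1a2-positive cells at E15.5, E17.5 and P7, were kept and left out as an alternative. The summed level of the neuronal markers is not reported here. The steps were checked on simulated data. Promoters are from RefSeq GRCm38.p6 and gene positions from GENCODE M21. Python 3.11.15, numpy 2.4.6, scipy 1.17.1 and matplotlib 3.10.9 were used.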

Additional observations from a re-analysis of the deposited data

Results flagged for a closer look

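For 4 ratios between stages, the Col1a2-positive cells and a background set moved in opposite directions, each with an interval that excludes 0. The difference between the sets was not tested in any of them, since each stage is 1 library. For Cd34 at P7 over E17.5 the log2 ratio was 2.39 in Col1a2-positive cells and -2.58 (-3.68 to -1.52) in epithelium, which rests on 14 UMIs at P7 and 20 at E17.5. Hmcn2 at the same step had 2.88 in Col1a2-positive cells and -1.15 (-2.31 to -0.19) in muscle, which rests on 9 UMIs at P7 and 170 at E17.5. With muscle cells of any Col1a2 level, which takes in Col1a2-positive cells, Hmcn2 stood at 54.0 CPM at P7 and 39.8 CPM at E17.5, so the direction in muscle depended on how muscle was delimited. For Cd81 at E17.5 over E15.5 the log2 ratio was 0.31 in Col1a2-positive cells and -0.25 (-0.31 to -0.18) in epithelium. Fmo2 at that step had 4.42 in Col1a2-positive cells and -2.71 (-3.83 to -1.76) in epithelium, from 10 UMIs at E17.5 and 79 at E15.5.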

How the results depend on the processing

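All alternatives below were planned. The number of genes at least 2-fold higher at P7 than at E17.5 was 9 under each alternative except the filter of 100 UMIs in both libraries, which left 6 of them measured and higher. At E17.5 over E15.5 it was 8 or 9 except under that filter, which gave 3, since fewer genes pass it. The lowest log2 ratio of the 9 genes was 0.91, for Hmcn2 at the earlier step. Of 190 log2 ratios under 10 alternatives, 151 lay inside the interval of the reported value, 37 outside with the same sign, and 2 were reversed, both for Cd81 at P7 over E17.5: -0.028 with at least 5 UMIs of Col1a2 and -0.052 when scaled by the median gene. Ratios of P7 over E17.5 moved by over 1.5 times for Hmcn2 (3.63 with at least 5 UMIs of Col1a2 and 4.34 without Myh11-carrying cells), for C3 (3.18), Pi16 (5.40), Ackr4 (2.15), Ly6a (5.01) and Hmcn2 (4.76) without cells carrying markers of other types, and for Ly6a (3.57) as the mean of each cell's CPM. Ratios of E17.5 over E15.5 did so for Clec3b (5.33) and Fmo2 (5.10) with at least 5 UMIs of Col1a2, Pi16 (1.81) and C3 (2.16) with at least 1, Hmcn2 (1.71) without Myh11-carrying cells and Fmo2 (5.22) without cells carrying markers of other types. The cause was not tested. The share of P7 cells with at least 2 of the 9 genes was 49.4% with at least 5 UMIs of Col1a2, 65.6% without Myh11-carrying cells and 63.5% without cells carrying markers of other types, where cells with few of the genes were left out. It was 31.6% when thinned to 3000 UMIs and 35.9% without thinning, where cells are shallower. Pairs above expectation at P7 were 28 of 30 to 33 of 38 under these settings. No paired analysis was possible because each stage has 1 library and no replicate. Depth limits Pi16, C3, Ly6a and Fmo2 most, with 4 to 9 UMIs at E15.5, and muscle at P7, with 485902 UMIs.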
